A study of Homo sapiens with 18 samples.

Results

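The cytokines and chemokines that senescent cells secrete were followed as a set of 10 genes: IL1A, IL1B, IL8 (the name the count table uses for CXCL8), CXCL1, CXCL2, CXCL3, CCL2, IL6, LIF and IL11. They were taken by name, whatever their values, and all 10 had a row among the 20705 genes of the table. RNA-seq was carried out on 18 libraries from cultures of CHL1 and A375, human melanoma cell lines that the labels give as WT in genotype. By the study's methods CHL1 has wild-type BRAF and NRAS and mutant p53 and was grown in DMEM, whereas A375 has mutant BRAF and wild-type p53 and was grown in RPMI-1640. CHL1 had 4 groups of 2 libraries: DMSO for 72 h (control_72hr), 1 µM of the CDK4/6 inhibitor palbociclib for 72 h (CDK4/6i_72hr) or 6 d (CDK4/6i_6d), and the PRMT5 inhibitor GSK3326595 at 500 nM for 72 h (PRMT5i_72hr). A375 had the same groups and a further DMSO group of 6 d (control_6d). CHL1 has no 6 d control among the libraries analysed here, so its 6 d libraries were compared with the 72 h control, and the longer culture is part of that comparison.

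Cells that stop dividing for good often begin to release inflammatory proteins, a state known as the senescence-associated secretory phenotype. IL-1 alpha and IL-1 beta signal through the IL-1 receptor to NF-kB and, with C/EBP factors, raise the transcription of the other genes of the set. IL8 and CXCL1 to CXCL3 draw neutrophils through the receptor CXCR2, CCL2 draws monocytes through CCR2, and IL6, LIF and IL11 share the receptor subunit gp130 (IL6ST), which acts through JAK kinases and STAT3. CDK4/6 inhibitors hold cells in the G1 phase and can lead them into senescence, and PRMT5 is an arginine methyltransferase that splicing factors and histones depend on.

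IL8, CXCL1, CXCL3 and CXCL2 lie in that order on chromosome 4 within 359 kb of one another in GRCh37 (IL8 begins at chr4:74606236 and CXCL2 ends its span at chr4:74964913), and IL1A and IL1B are neighbours on chromosome 2 with 45.3 kb between them. Their promoters are shown because 5 of the 10 genes carry the same NF-kB letters at nearly the same distance from the start, although, as described below, these 5 genes did not change together. The search was for GGANTTTCC on both strands in the 250 bases before the RefSeq start, and 1.46% of 34796 RefSeq promoters hold it. The bases from -150 to -55 relative to that start are printed 5′ to 3′ on the gene's own strand, with GRCh37 coordinates and the match in capitals.

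IL6, chr7:22766669-22766764, plus strand: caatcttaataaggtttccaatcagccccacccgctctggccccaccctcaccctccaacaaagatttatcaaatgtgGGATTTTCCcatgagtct

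IL8, chr4:74606136-74606231, plus strand: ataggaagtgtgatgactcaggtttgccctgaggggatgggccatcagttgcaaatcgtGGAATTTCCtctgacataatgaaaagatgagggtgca

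CXCL1, chr4:74734960-74735055, plus strand: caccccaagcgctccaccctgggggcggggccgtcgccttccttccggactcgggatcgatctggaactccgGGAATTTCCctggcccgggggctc

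CXCL2, chr4:74964967-74965062, minus strand: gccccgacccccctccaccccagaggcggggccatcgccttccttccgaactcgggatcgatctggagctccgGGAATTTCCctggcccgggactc

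CXCL3, chr4:74904461-74904556, minus strand: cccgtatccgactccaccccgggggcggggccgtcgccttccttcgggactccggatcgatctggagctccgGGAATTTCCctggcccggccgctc

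The match lies at -72 to -64 in IL6, at -91 to -83 in IL8, at -78 to -70 in CXCL1 and CXCL3, and at -77 to -69 in CXCL2. The stretch around it is closely alike in CXCL1, CXCL2 and CXCL3. In CXCL3 part of the printed window also falls in the first exon of a longer transcript without an annotated coding sequence. IL8 also held the AP-1 letters TGANTCA at -137 to -131, letters that 6.59% of the promoters hold. IL1A has an upstream and a downstream RefSeq start, and from the downstream start it held them at -105 to -99 and -55 to -49. The former stretch is the same bases as -12 to -6 from the upstream start. IL11 held them at -96 to -90. The C/EBP letters TTNNGNAA, which 33.2% of the promoters hold, were in IL6, IL1A, IL1B and CXCL2, and TATAAA on the gene's strand, in 6.84% of promoters, was in IL8 and IL1A. The windows of IL11, IL1A and IL1B had no match to the NF-kB letters. LIF and CCL2 were not searched for any of these letters, for want of a RefSeq promoter sequence. The sequences are RefSeq's, from its table on GRCh38.p14, and each was found at 1 place in GRCh37. A match of letters is a description and not evidence of binding.

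Between 16213475 and 37424081 reads were counted per library, and values are given as CPM, a gene's reads relative to the library's total after TMM scaling. Of 6 melanoma markers with a row, MITF ranged from 63.8 to 211 CPM over all libraries, AXL from 182 to 695 in A375 and from 26.7 to 41.9 in CHL1, and DCT from 36.3 to 142 in CHL1 and from 0 to 1.79 in A375. S100B ranged from 11.2 to 128 CPM in CHL1 and from 3.57 to 108 CPM in A375. PMEL and TYR stayed at or below 5.02 CPM, and SOX10 and MLANA were not analysed here. Of 6 leukocyte and endothelial markers, the common leukocyte antigen PTPRC was at 7.41 to 16.8 CPM in CHL1 and the lysozyme gene LYZ at 1.83 to 22.5 CPM in A375, while CD14 and ITGAM stayed at or below 0.713 CPM in both lines. Libraries differed in how their reads spread over genes of high and low GC content. The gap in log2 CPM between GC-rich and GC-poor genes, relative to the mean of the line, was -2.41 and -1.74 in the CHL1 PRMT5i_72hr libraries and -2.27 and -0.98 in the A375 control_6d libraries, against -0.05 to 0.98 in the other 14. Calls that rest on these 4 libraries are given also after a correction for GC content. The labels do not say that libraries of a group came from separate cultures, so p-values measure the spread between these libraries, which may be technical.

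In untreated cells the set split by cell line, with IL6 on the CHL1 side and 8 genes on the A375 side. Under palbociclib IL8 rose in CHL1 at both times, IL1B rose in A375 at both times, IL1A, CCL2 and LIF rose in A375 at 6 d, and IL11 fell in A375 at 72 h. Under PRMT5i IL8 and LIF were called lower in CHL1, IL8 from 2 and 3 reads to none and LIF by 1.15 on the log2 scale, a difference of -0.16 (adjusted p = 0.712) after the GC correction. In A375 no gene of the set passed the test under PRMT5i, and 5 did with the replicate number as a block. Throughout, edgeR's quasi-likelihood test was run over all 20705 genes, and a call is a Benjamini-Hochberg adjusted p below 0.05. In bulk libraries fewer cells of a type and less RNA per cell cannot be told apart. Errors of log2 fold changes are standard errors of that fit, and levels are mean ± SD of 2 libraries.

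Counted by comparison, 1 of the 10 genes was up-regulated and none down-regulated in CHL1 CDK4/6i_72hr, where 4.98% of all genes were called, 2.27% higher and 2.72% lower. In CHL1 CDK4/6i_6d the counts were 1 up and none down, against 16.6% of all genes, 8.83% higher and 7.80% lower. In CHL1 PRMT5i_72hr none was up and 2 were down, against 54.0% of all genes, 26.4% higher and 27.6% lower. In A375 CDK4/6i_72hr 1 was up and 1 down, against 13.3% of all genes, 6.22% higher and 7.11% lower. In A375 CDK4/6i_6d 4 were up and none down, against 43.1% of all genes, 21.8% higher and 21.3% lower. In A375 PRMT5i_72hr none was called by edgeR or by DESeq2, against 2.61% of all genes by edgeR (0.874% higher and 1.74% lower), and 2 of the 10 had an unadjusted p below 0.05 in each. DESeq2 gave 1 of the 10 no adjusted p there. By edgeR 3332 of all 20705 genes had an unadjusted p below 0.05 in that comparison. With the replicate number as a block, in a fit of the 6 A375 libraries at 72 h where 29.5% of all genes were called, IL6 (1.63, adjusted p = 0.0018), IL11 (0.66, adjusted p = 8.7e-10), IL1B (0.50, adjusted p = 0.0005) and LIF (0.38, adjusted p = 0.0001) were called higher and CXCL1 (-0.33, adjusted p = 0.0423) lower, and without the block the same 6 libraries gave IL6 and IL11. The labels do not say what a number shares. The median log2 fold change of the 10 genes was 0.05, -0.09 and -0.67 in the CHL1 comparisons in that order and 0.25, 0.23 and 0.45 in the A375 ones, while the median over all genes was between 0.00 and 0.10 in all 6. After the GC correction the medians of the 10 genes were -0.51 in CHL1 PRMT5i_72hr and 0.52 in A375 CDK4/6i_6d. The value of -0.67 is the same over the 8 genes left without IL8 and CCL2, which had no reads under PRMT5i in CHL1. The comparisons within a line share its control libraries, except A375 at 6 d.

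**Figure D1:**
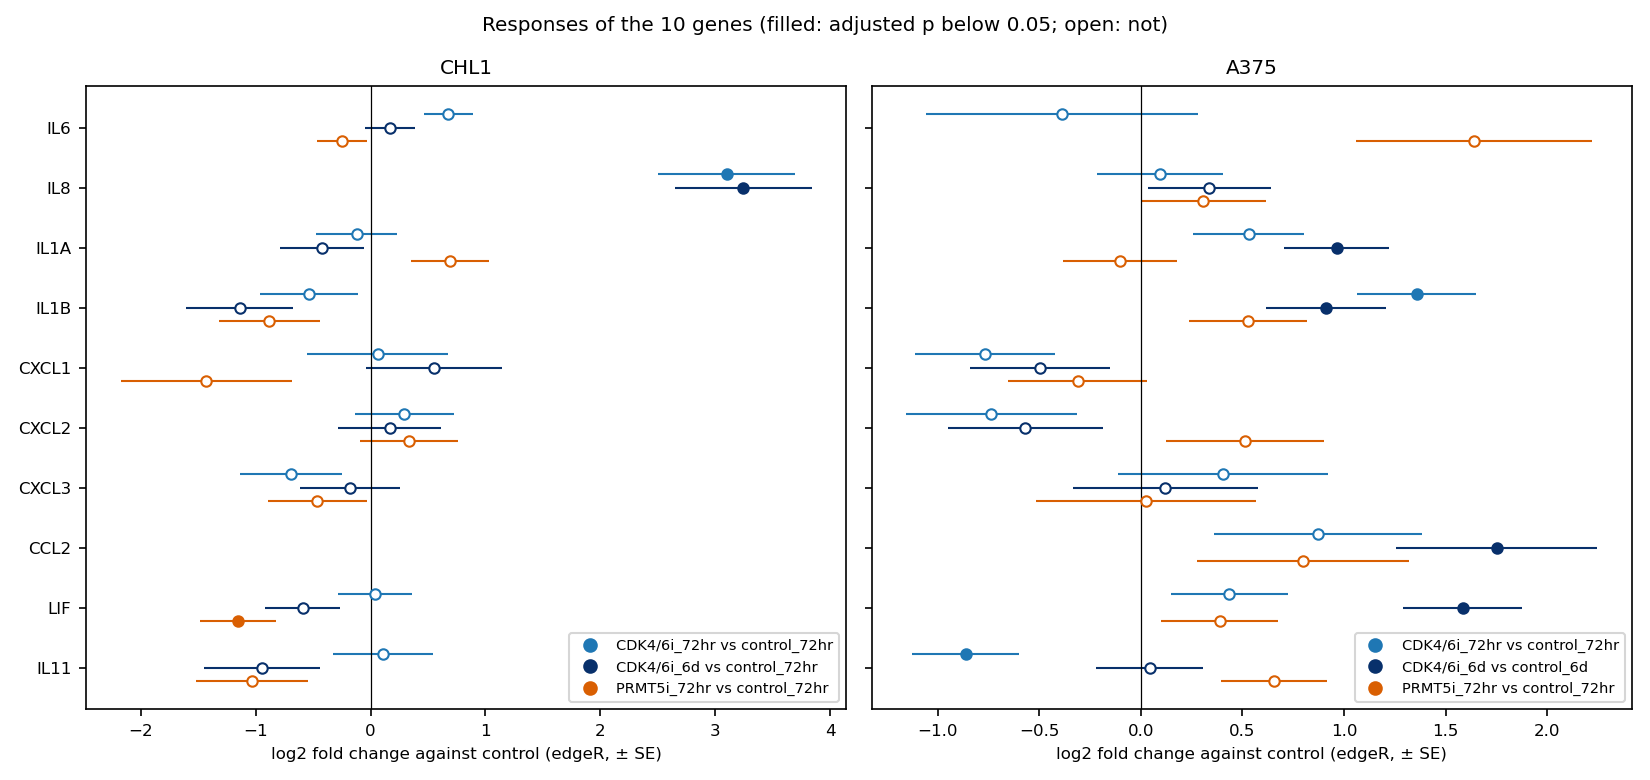
Log2 fold change against control (x axis, edgeR, with standard error bars) of the 10 genes (y axis) in CHL1 (left) and A375 (right), with 1 colour per treatment and filled points where the adjusted p is below 0.05. CCL2 in CHL1, IL8 in CHL1 PRMT5i_72hr and IL6 in A375 CDK4/6i_6d are left out for want of reads. IL8 stands farthest to the right in CHL1 at 3.10 and 3.24 under CDK4/6i, and CCL2 and LIF in A375 CDK4/6i_6d at 1.75 and 1.58.

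The ligands at the head of the pathway, IL1A and IL1B, responded to palbociclib in A375. IL1B stood at 13.2 and 13.4 CPM in A375 control_72hr and at 34.3 and 36.7 CPM in CDK4/6i_72hr. Both treated libraries lay well above both controls, and the log2 fold change was 1.36 ± 0.29 (adjusted p = 0.0060). At 6 d IL1B was at 5.05 and 5.70 CPM in the control and at 6.97 and 13.3 CPM under CDK4/6i, with no overlap but a wide gap between the treated libraries (log2 fold change 0.91 ± 0.30, adjusted p = 0.0212). The 72 h call was lost without control_72hr replicate 1 (adjusted p = 0.0606), without control_72hr replicate 2 (0.0610) or without CDK4/6i_72hr replicate 2 (0.0510), at log2 fold changes of 1.31 to 1.39. The 6 d call was lost without control_6d library 1 (0.80, adjusted p = 0.110) and without CDK4/6i_6d library 2 (0.38, adjusted p = 0.380), and in a fit of the 2 compared groups alone (adjusted p = 0.0635). Under PRMT5i IL1B read 14.0 and 24.9 CPM, both above the control, and the difference did not pass (0.53 ± 0.29, adjusted p = 0.402).

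IL1A was at 21.2 and 14.9 CPM in A375 control_6d and at 26.7 and 43.7 CPM in CDK4/6i_6d. The groups did not overlap, and the rise was 0.96 ± 0.26 on the log2 scale (adjusted p = 0.0075). It rested on CDK4/6i_6d library 2, the higher of the pair, without which it was 0.58 (adjusted p = 0.146). At 72 h the order was the same, with 6.76 and 8.84 CPM in the control and 11.4 and 12.1 CPM under CDK4/6i, but the difference did not pass (0.53 ± 0.27, adjusted p = 0.225). In CHL1 both genes were low, at 1.87 to 5.02 CPM for IL1A and 0.394 to 1.49 CPM for IL1B over 8 libraries, and neither was called in any of the 3 comparisons with control. There IL1B was lower at 6 d of CDK4/6i, at 0.419 and 0.668 CPM against 0.898 and 1.49 CPM in the control. The log2 fold change was -1.14 ± 0.47 (edgeR unadjusted p = 0.0315, adjusted p = 0.119). By adjusted p both genes came nearest under PRMT5i, in opposite directions. IL1A was at 3.82 and 5.02 CPM against 1.87 and 3.69 CPM (0.69 ± 0.34, adjusted p = 0.109) and was called without control_72hr replicate 2 (1.26, adjusted p = 0.0265). IL1B was at 0.872 and 0.394 CPM against 0.898 and 1.49 CPM (-0.88, adjusted p = 0.111) and was called without PRMT5i_72hr replicate 1 (-1.56, adjusted p = 0.0367).

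Among the CXC chemokines, IL8 was the gene that changed in CHL1. It had 2 and 3 reads in the controls, or 0.0691 and 0.106 CPM, and 17 and 26 reads under CDK4/6i_72hr, or 0.635 and 0.935 CPM. At 6 d it had 27 and 14 reads, or 1.03 and 0.668 CPM. Every palbociclib library lay above both controls. The pooled counts gave a ratio of 9.00 at 72 h (exact 95% interval 3.57 to 29.1, from 43 against 5 reads) and of 9.93 at 6 d (3.93 to 32.2, from 41 against 5 reads), intervals that cover counting error only. The edgeR log2 fold changes were 3.10 ± 0.60 (adjusted p = 0.0173) and 3.24 ± 0.60 (adjusted p = 0.0055). Direction and size held when any 1 library was left out, but the 72 h call was lost without each of the 4 libraries in turn, control replicates 1 and 2 and CDK4/6i_72hr replicates 1 and 2 (2.79 to 3.42, adjusted p = 0.0644 to 0.155). The 6 d call was lost without control replicate 1 (2.97, adjusted p = 0.0562) or 2 (3.57, adjusted p = 0.0523). PRMT5i moved the other way, with no read of IL8 in either CHL1 PRMT5i_72hr library (adjusted p = 0.0413). No fold is given there because 2 and 3 reads in the controls are themselves at or under the 3 reads that a count of 0 allows. That call was lost without each of the 4 libraries, both controls and both PRMT5i libraries (adjusted p = 0.0666 to 0.123), and with DESeq2 (adjusted p = 0.0523).

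In A375 IL8 stood far above its CHL1 level before treatment, at 11.7 and 14.6 CPM in control_72hr. It read 13.4 and 15.9 CPM under CDK4/6i_72hr and 13.4 and 19.5 CPM under PRMT5i_72hr, and neither difference passed (0.10 ± 0.31 and 0.31 ± 0.31, adjusted p = 0.888 and 0.685). At 6 d the controls stood far apart, at 17.8 and 8.17 CPM, and the treated libraries at 19.3 and 13.4 CPM overlapped them (0.34 ± 0.30, adjusted p = 0.388). Without control_6d library 1, the library with the strongest GC gap in A375, the 6 d difference was called (0.97, adjusted p = 0.0166). After the GC correction, where 37.6% of 16356 genes were called, it was 1.62 (adjusted p = 0.0006). IL8 has the lowest GC content of the set, at 32.9% of its transcript.

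CXCL1, CXCL2 and CXCL3, whose promoters share the letters shown for IL8, were not called in any comparison of treated with control cells. CXCL1 read 13.6 and 22.1 CPM in A375 control_72hr, 8.56 and 13.3 CPM under CDK4/6i and 9.76 and 19.4 CPM under PRMT5i. Each CDK4/6i library lay below both controls, but the controls themselves were widely spaced (-0.77 ± 0.34, adjusted p = 0.157). At 6 d it read 5.86 and 9.61 CPM in the control and 6.04 and 5.00 CPM under CDK4/6i, which overlap (-0.50 ± 0.35, adjusted p = 0.264). CXCL2 had 16 to 47 reads and CXCL3 11 to 50 reads in A375, and 10 to 17 and 11 to 25 reads in CHL1, and the standard errors of their log2 fold changes against control were 0.38 to 0.54. CXCL1 had 1 to 11 reads in CHL1. Since 5.26% to 10.1% of the 50-base words of their transcripts are shared among CXCL1, CXCL2 and CXCL3, reads from these stretches cannot be given to one of them with certainty.

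CCL2, the monocyte chemokine, was measured in A375 only. In CHL1 none of 8 libraries held a read, which allows up to 0.101 to 0.143 CPM (3 reads) per library. In A375 it had 6 and 16 reads in control_6d, or 0.180 and 0.501 CPM, and 37 and 49 reads in CDK4/6i_6d, or 1.01 and 1.31 CPM. Both treated libraries were above both controls, and the log2 fold change was 1.75 ± 0.49 (adjusted p = 0.0100). The call was lost without control_6d library 1 (1.17, adjusted p = 0.0915) or CDK4/6i_6d library 2 (1.56, adjusted p = 0.0603). At 72 h CCL2 read 0.724 and 0.489 CPM in the control, 1.48 and 0.851 CPM under CDK4/6i and 0.932 and 1.21 CPM under PRMT5i. All 4 treated libraries were above both controls, and neither difference passed (0.87 ± 0.51 and 0.80 ± 0.52, adjusted p = 0.292 and 0.494).

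Among the gp130 cytokines LIF, which sustains stem cells through STAT3, rose in A375 and was the 1 gene of the set whose 6 d call held without any 1 library. It stood at 17.7 and 40.4 CPM in A375 control_6d and at 78.4 and 97.7 CPM in CDK4/6i_6d, without overlap (1.58 ± 0.29, adjusted p = 0.0006). The call held with each of the 4 libraries left out in turn and after the GC correction (1.05, adjusted p = 0.0020). At 72 h LIF read 61.2 and 66.4 CPM in the control, 80.4 and 99.4 CPM under CDK4/6i and 74.1 and 94.8 CPM under PRMT5i. Here too every treated library was above both controls, but neither difference passed (0.44 ± 0.29 and 0.39 ± 0.29, adjusted p = 0.354 and 0.557). The treated levels at 72 h and 6 d were alike, at 89.9 ± 13.4 and 88.0 ± 13.6 CPM, and it was the control that was lower at 6 d, at 29.1 ± 16.1 against 63.8 ± 3.65 CPM.

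In CHL1 LIF was at 14.7 and 12.9 CPM in the control and at 3.89 and 8.35 CPM under PRMT5i, below both controls (-1.15 ± 0.33, adjusted p = 0.0108). The call was lost without control replicate 1 (-1.06, adjusted p = 0.0605) or PRMT5i replicate 1 (-0.70, adjusted p = 0.0727). After the GC correction the difference was -0.16 (adjusted p = 0.712). LIF has the highest GC content of the set, at 57.1%, and GC-rich genes as a group were low in the PRMT5i libraries. Palbociclib left LIF at 12.6 and 15.8 CPM at 72 h and 11.2 and 6.82 CPM at 6 d, and neither difference passed (adjusted p = 0.998 and 0.246).

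IL6, the best known cytokine of the secretory phenotype, was a CHL1 gene. It stood at 22.002 and 15.8 CPM in the CHL1 control and at 34.9 and 25.6 CPM under CDK4/6i_72hr, above both controls, and the difference missed the threshold (0.68 ± 0.22, adjusted p = 0.0950). It passed in a fit of the 2 compared groups alone (0.68, adjusted p = 0.0170), with DESeq2 (0.70, adjusted p = 0.0415) and after the GC correction (0.77, adjusted p = 0.0231). Those fits called 4202, 1671 and 2350 genes, against 1032 in the main fit. With 1 of the 4 libraries left out the difference was 0.43 to 0.94. At 6 d IL6 read 21.8 and 20.3 CPM, within the range of the controls (0.17 ± 0.22, adjusted p = 0.645). Under PRMT5i it read 17.1 and 14.3 CPM (-0.25 ± 0.22, adjusted p = 0.368), and -0.82 after the GC correction (adjusted p = 0.0102), where 28.7% of genes were called. In A375 IL6 was scarce, with 9 and 11 reads in control_72hr, 7 and 8 under CDK4/6i and 21 and 32 under PRMT5i, the last at 1.15 and 1.94 CPM against 0.434 and 0.538 CPM (1.64 ± 0.58, adjusted p = 0.160). Both A375 groups at 6 d had 0 and 2 reads, and no fold is given.

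IL11 was nearly absent from CHL1 and far higher in A375. It read 29.1 and 44.5 CPM in control_72hr and 19.2 and 22.9 CPM under CDK4/6i_72hr, below both controls (-0.86 ± 0.26, adjusted p = 0.0410). The call was lost without control_72hr replicate 2 (-0.50, adjusted p = 0.401), CDK4/6i_72hr replicate 1 (-0.74, adjusted p = 0.268) or replicate 2 (-0.99, adjusted p = 0.133). Under PRMT5i it read 47.8 and 69.3 CPM, above both controls, and did not pass (0.66 ± 0.26, adjusted p = 0.213). At 6 d it was at 8.89 and 13.4 CPM in the control and 10.1 and 13.0 CPM under CDK4/6i, an overlap (0.04 ± 0.26, adjusted p = 0.916). In CHL1 IL11 had 4 to 21 reads per library and was not called against control.

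**Figure D2:**
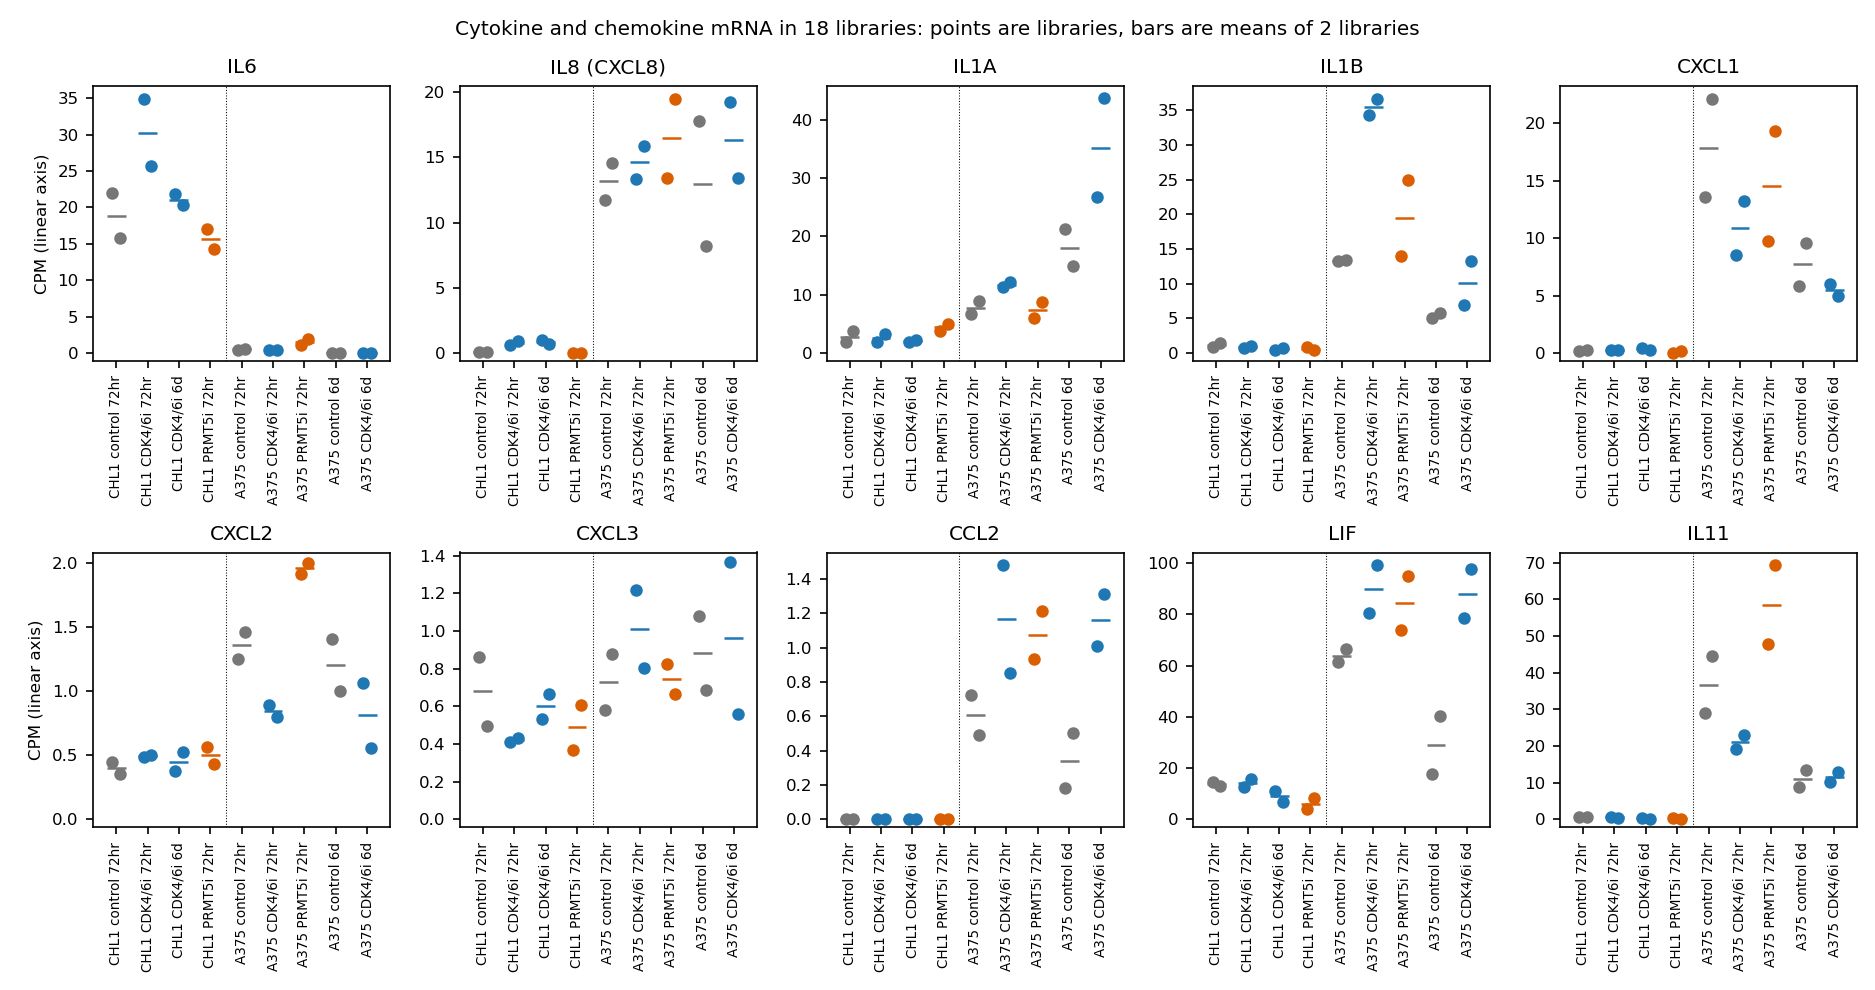
Level of each of the 10 genes (1 panel each) in the 18 libraries, in CPM on a linear y axis of its own, with 1 point per library, a bar at the mean of 2 libraries and the groups along the x axis. In the 72 h controls IL6 is higher in CHL1 and the other genes but CXCL3 in A375, and LIF in A375 CDK4/6i_6d lies at 78.4 and 97.7 CPM against 17.7 and 40.4 CPM in its control.

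The A375 calls at 6 d depend on which control is used. A375 control_6d and control_72hr differed in several of these genes, with IL1A at 18.04 ± 4.44 against 7.80 ± 1.48 CPM, IL1B at 5.37 ± 0.459 against 13.3 ± 0.117 CPM, and IL11 at 11.1 ± 3.19 against 36.8 ± 10.9 CPM. The column names put the 6 d A375 libraries in the same set as the CHL1 ones and the 72 h A375 libraries in another, so time in culture and library set cannot be told apart. Compared with the 72 h control, the 6 d palbociclib libraries kept the call of IL1A, and LIF (0.42, adjusted p = 0.294) and CCL2 (0.88, adjusted p = 0.189) no longer passed. In that comparison IL1B turned to -0.44 (adjusted p = 0.278), IL11 to -1.71 (adjusted p = 0.0001), and CXCL1 to -1.74 (adjusted p = 0.0013), and IL6, with 0 and 2 reads against 9 and 11, was called lower (adjusted p = 0.0033).

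Whether the response changed with time was tested directly. In CHL1, CDK4/6i_6d against CDK4/6i_72hr gave no call among the 10 genes with edgeR or DESeq2, where 0.0145% of all genes were called, and IL6 (-0.51 ± 0.22) was the 1 gene with an unadjusted p below 0.05 (0.0366). DESeq2 gave 5 of the 10 genes no adjusted p in this comparison and could not call them. By edgeR 1634 of all 20705 genes had an unadjusted p below 0.05 in it. IL8 differed by 0.15 ± 0.42 between the times. In A375 the difference of the 2 responses, each against its own control, gave no call with either tool, where 1.08% of all genes were called. Here 4 of the 10 genes had no adjusted p from DESeq2. An unadjusted p below 0.05 from edgeR was reached by 4118 of all 20705 genes. By edgeR LIF (1.15 ± 0.41, adjusted p = 0.152) and IL11 (0.90 ± 0.37, adjusted p = 0.201) had an unadjusted p below 0.05 and were called without control_6d library 2 (1.91 and 1.26, adjusted p = 0.0003 and 0.0165), a fit that leaves the control with the strongest GC gap alone and in which the calls over all genes went from 224 to 7019.

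The correction for GC content was set beside the uncorrected fit of the same 16356 genes for the comparisons that rest on the 4 libraries with a strong GC gap. In CHL1 PRMT5i_72hr it removed the LIF call and added IL6, while IL8 stayed called (adjusted p = 0.0142). In A375 CDK4/6i_6d it left IL1A (1.60), IL1B (0.84, adjusted p = 0.0441), CCL2 (2.11) and LIF (1.05) called and added IL8. Whether the GC gap arises in library preparation or in the cells was not tested.

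**Figure D3:**
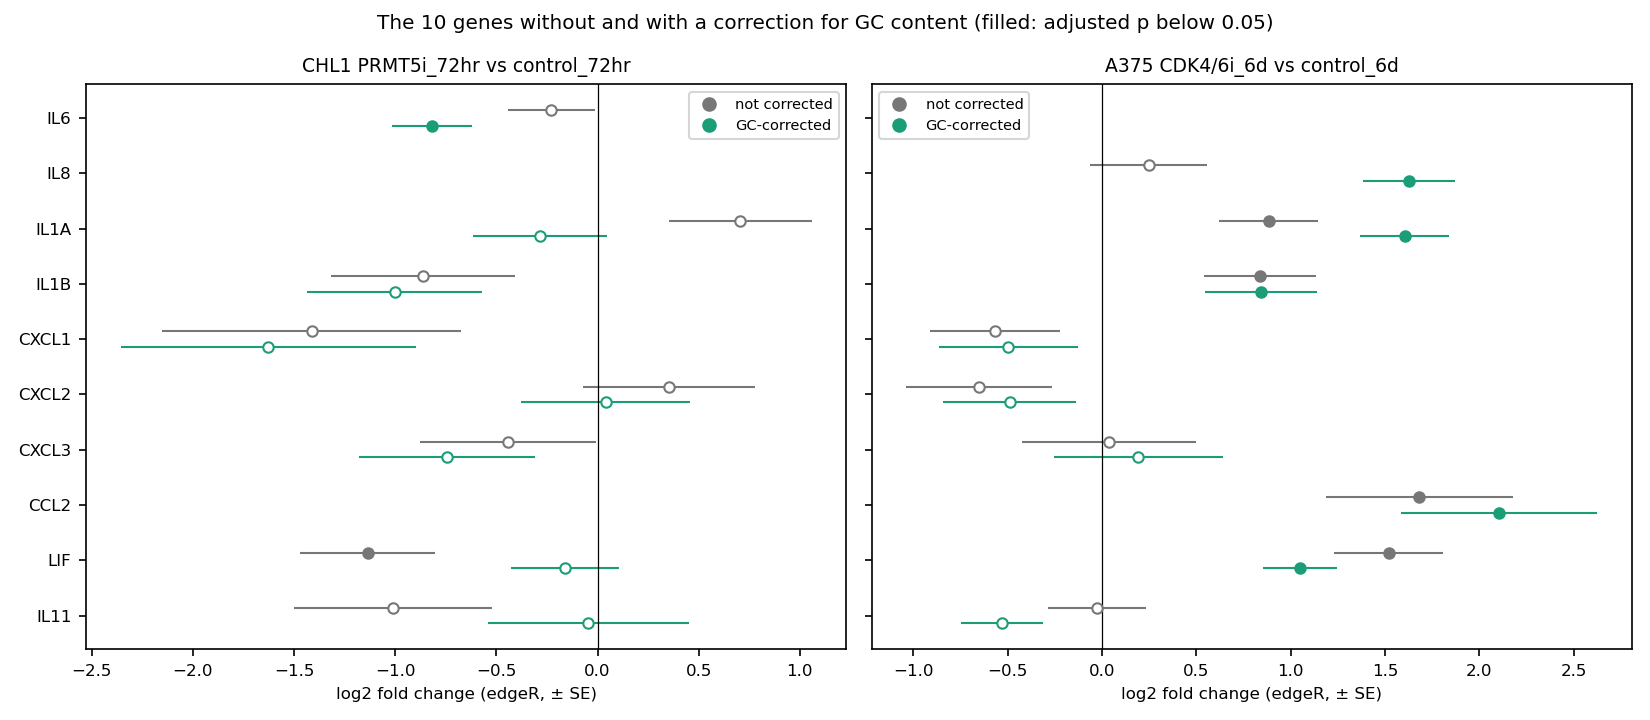
Log2 fold change (x axis, edgeR, with standard error bars) of each gene without (grey) and with (green) the GC correction in CHL1 PRMT5i_72hr (left) and A375 CDK4/6i_6d (right), filled where the adjusted p is below 0.05. LIF moves from a call to -0.16 in CHL1, and IL8 moves to 1.62 in A375. IL8 and CCL2 in CHL1 and IL6 in A375 are left out for want of reads.

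The treated libraries were also compared with each other at 72 h, at the different molar doses given above, to ask where the response to PRMT5i differs from that to CDK4/6i. In CHL1, IL6, IL8 and LIF were lower under PRMT5i than under CDK4/6i, 3 of the 10 genes in a comparison where 57.8% of all genes were called and 29.4% called lower. IL6 read 17.1 and 14.3 CPM against 34.9 and 25.6 CPM (-0.93 ± 0.22, adjusted p = 0.0029). IL8 had no read against 17 and 26 reads, at least 7.58-fold lower when 3 reads per library stand for the 0 (adjusted p = 0.0001). Both kept their calls with any 1 of the 4 libraries left out and after the GC correction (IL6 -1.59, adjusted p = 0.0001). LIF read 3.89 and 8.35 CPM against 12.6 and 15.8 CPM (-1.19 ± 0.33, adjusted p = 0.0082), a call that was lost without CDK4/6i_72hr replicate 2 (-1.02, adjusted p = 0.0561) or PRMT5i_72hr replicate 1 (-0.74, adjusted p = 0.0564) and after the GC correction (-0.16, adjusted p = 0.684). IL1A leaned the other way, at 3.82 and 5.02 CPM against 1.87 and 3.24 CPM (0.81 ± 0.34, adjusted p = 0.0621).

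In A375, IL11 was higher under PRMT5i than under CDK4/6i, at 47.8 and 69.3 CPM against 19.2 and 22.9 CPM (1.52 ± 0.27, adjusted p = 0.0049). It was the 1 gene called of the 10, where 5.45% of all genes were called and 2.37% called higher. The call was lost without CDK4/6i_72hr replicate 1 (1.40, adjusted p = 0.0850) or PRMT5i_72hr replicate 2 (1.24, adjusted p = 0.0948). IL6 (2.03 ± 0.60, adjusted p = 0.0610), CXCL2 (1.25 ± 0.41, adjusted p = 0.0897) and IL1B (-0.83 ± 0.29, adjusted p = 0.105) missed the threshold. All 3 passed in a fit of the 2 compared groups alone (adjusted p = 0.0084, 0.0253 and 0.0075). That fit called 4517 of all 20705 genes, against 1129 in the main fit. CXCL2 read 1.92 and 2.00 CPM under PRMT5i against 0.898 and 0.801 CPM under CDK4/6i, with no overlap.

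Before treatment the lines differed in 9 of the 10 genes, where 58.9% of all genes differed, 29.3% higher in CHL1 and 29.6% higher in A375. IL6 was higher in CHL1, at 18.9 ± 4.40 CPM against 0.486 ± 0.0729 CPM (5.27 ± 0.38 on the log2 scale), and 8 genes were higher in A375. The gaps were 2.21 ± 0.35 for LIF, 1.49 ± 0.34 for IL1A, 1.75 ± 0.40 for CXCL2, 3.48 ± 0.38 for IL1B, 5.98 ± 0.35 for IL11 and 6.16 ± 0.48 for CXCL1 on the log2 scale. For IL8 the pooled counts gave a ratio of 150 (exact 95% interval 64.0 to 464), and for CCL2 A375 was at least 5.78-fold higher with 3 reads per library in place of the 0. CXCL3 did not differ beyond its error (-0.10 ± 0.49, adjusted p = 0.877). The 9 calls held with each of the 4 control libraries left out. Cell line, medium and library set differ together in this comparison and cannot be told apart.

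Per kilobase of transcript, which allows genes to be compared, LIF (16.5 ± 0.943), IL11 (15.5 ± 4.60) and CXCL1 (15.2 ± 5.16 CPM per kb) led in A375 control_72hr and did not differ beyond their spread. IL1B (8.83 ± 0.0775) and IL8 (8.01 ± 1.22) followed, then IL1A (3.87 ± 0.732), and CXCL2, CCL2, CXCL3 and IL6 stood between 1.22 and 0.431 CPM per kb. In the CHL1 control IL6 led with 16.8 ± 3.91, ahead of LIF with 3.56 ± 0.324 and IL1A with 1.38 ± 0.639, and all others were below 1 CPM per kb.

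With the 9 groups ordered by level, the libraries of adjacent groups did not overlap at 5 of 8 steps in IL6, IL1A and IL11. The count was 4 in IL1B and LIF, 3 in IL8, 2 in CXCL1, CXCL2 and CCL2 and none in CXCL3. How often such steps occur over all genes was not counted, so these counts do not rank the genes. Some steps are the gap between the lines, and in A375 a step of IL6 rests on 9 and 11 against 7 and 8 reads. IL6 fell from 30.3 ± 6.58 CPM in CHL1 CDK4/6i_72hr to 15.7 ± 1.98 CPM in CHL1 PRMT5i_72hr before the step down to A375, and the 3 lowest CHL1 groups overlapped their neighbours. IL11 stepped down from 58.5 ± 15.3 CPM in A375 PRMT5i_72hr through 36.8 ± 10.9 in control_72hr and 21.1 ± 2.61 in CDK4/6i_72hr to the 6 d groups, which overlapped at 11.6 ± 2.01 and 11.1 ± 3.19. LIF ended lowest in CHL1 PRMT5i_72hr at 6.12 ± 3.16 CPM, overlapping CHL1 CDK4/6i_6d at 9.01 ± 3.10. The 5 A375 groups of IL8 overlapped from each to the next, at 12.98 ± 6.80 to 16.5 ± 4.28 CPM.

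The response to a drug differed between the lines for several of these genes, by the interaction of line and treatment in a fit of all 18 libraries. For CDK4/6i_72hr no gene of the set was called, where 0.642% of all genes were, and 2 had an unadjusted p below 0.05, IL8 (2.95 ± 0.77, adjusted p = 0.102) and IL1B (-1.95 ± 0.55, adjusted p = 0.130). DESeq2 called both (adjusted p = 0.0179 and 0.0253). By edgeR 2073 of all 20705 genes had an unadjusted p below 0.05 for that difference. For CDK4/6i_6d 21.9% of all genes were called, 12.4% higher and 9.51% lower in CHL1. There the response of IL8 was more positive in CHL1 (2.90 ± 0.77, adjusted p = 0.0138). The responses of IL1A (-1.40 ± 0.48, adjusted p = 0.0442), IL1B (-2.07 ± 0.59, adjusted p = 0.0183) and LIF (-2.21 ± 0.48, adjusted p = 0.0040) were more positive in A375. Within CHL1 these 3 genes leaned down without a call, at log2 fold changes of -0.43, -1.14 and -0.59 in that order. Within A375 they rose, at 0.96, 0.91 and 1.58. LIF kept its call with any 1 of the 8 libraries left out. After the GC correction LIF (-1.77, adjusted p = 0.0043), IL1A (-2.13, adjusted p = 0.0049) and IL1B (-1.97, adjusted p = 0.0301) were called. IL8 lost it without CHL1 control replicate 1 (2.62) or CHL1 CDK4/6i_6d replicate 1 (2.54, both adjusted p = 0.0765) and after the GC correction (1.31, adjusted p = 0.180). IL1A lost it without CHL1 control replicate 2 (-0.84), CHL1 CDK4/6i_6d replicate 1 (-1.30) or 2 (-1.51), A375 control_6d library 2 (-1.19) or A375 CDK4/6i_6d library 2 (-0.98), with adjusted p of 0.0683 to 0.280. IL1B lost it without CHL1 control replicate 2 (-1.67), CHL1 CDK4/6i_6d replicate 1 (-1.75), A375 control_6d library 1 (-1.99) or A375 CDK4/6i_6d library 2 (-1.50), with adjusted p of 0.0545 to 0.107. The controls are of 72 h in CHL1 and 6 d in A375, which is part of these differences.

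For PRMT5i_72hr, where 40.9% of all genes were called and 22.1% lower in CHL1 than in A375, 4 genes of the set were called, all lower in CHL1. They were IL6 (-1.92 ± 0.52, adjusted p = 0.0067), IL1B (-1.44 ± 0.56, adjusted p = 0.0467), LIF (-1.58 ± 0.48, adjusted p = 0.0135) and IL11 (-1.72 ± 0.57, adjusted p = 0.0213). IL6 lost its call without A375 PRMT5i_72hr replicate 2 (-1.50, adjusted p = 0.0620) and kept it with any other library left out and after the GC correction. LIF lost it without CHL1 PRMT5i_72hr replicate 1 (-1.10, adjusted p = 0.0899) or A375 PRMT5i_72hr replicate 2 (-1.39, adjusted p = 0.0578), and after the correction it was -0.56 (adjusted p = 0.324). IL11 lost it without CHL1 control replicate 2 (-1.69), CHL1 PRMT5i_72hr replicate 1 (-1.83) or 2 (-1.54), A375 control_72hr replicate 1 (-1.39) or A375 PRMT5i_72hr replicate 2 (-1.42), and after the correction it was -0.72 (adjusted p = 0.392). IL1B lost it without CHL1 control replicate 2 (-1.07), CHL1 PRMT5i_72hr replicate 2 (-0.94), A375 control_72hr replicate 1 (-1.37) or 2 (-1.49), or A375 PRMT5i_72hr replicate 2 (-0.97), and after the correction it was -1.57 (adjusted p = 0.0600).

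The receptors of these factors were measured in the same libraries. IL6ST, the shared gp130 subunit, was measured at 36.6 to 143 CPM in every library. LIFR, its partner for LIF, stood at 165 ± 10.5 CPM in the CHL1 control and 25.2 ± 3.21 CPM in A375 control_72hr, the reverse of the order of LIF itself. IL6R was at 8.82 ± 0.163 and 32.2 ± 0.0767 CPM in the same groups, the reverse of the order of IL6. IL11RA was low, at 0.469 to 6.02 CPM, and rose at 6 d of CDK4/6i in CHL1 (1.40 ± 0.30, adjusted p = 0.0096) and in A375 (1.21 ± 0.29, adjusted p = 0.0041, and 0.52 with adjusted p = 0.154 after the GC correction). IL1R1, the IL-1 receptor, stayed at or below 2.80 CPM and its accessory chain IL1RAP between 11.1 and 128 CPM. CXCR2, the receptor of IL8 and CXCL1 to CXCL3, stayed at or below 0.40 CPM. In A375 CDK4/6i_6d LIFR fell (-1.49 ± 0.29, adjusted p = 0.0009, and -0.62 with adjusted p = 0.0304 after the correction), as did IL1RAP (-1.24, and -0.52 with adjusted p = 0.0492) and IL6ST (-0.49), and CXCR2 was called higher, at 11 and 13 reads against 0 and 1. IL6ST turned to a rise of 0.38 (adjusted p = 0.0258) after the correction. In CHL1 CDK4/6i_6d IL6R rose (0.85 ± 0.20, adjusted p = 0.0155). In CHL1 PRMT5i_72hr, where 54.0% of all genes were called, 4 of 7 receptors rose and 2 fell, and after the correction, where 28.7% were, none rose and 2 fell, with LIFR turning from 0.73 to -0.38 (adjusted p = 0.0411) and IL6R lower in both fits (-1.08 and -0.66). CXCR1, IL1R2 and CCR2 were not analysed here.

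In A375, TNFAIP3, the A20 protein that restrains NF-kB and is itself an NF-kB target, rose at 6 d by 1.92 ± 0.24 (adjusted p = 3.7e-05) and 1.61 after the GC correction. It led a list of IL-1 and NF-kB pathway genes in which 9 of 25 rose and 5 fell in A375 CDK4/6i_6d (7 and 4 after the correction), against 21.8% and 21.3% of all genes, with a median of 0.44 (0.01 after the correction), and REL, an NF-kB subunit, fell (-0.91, and -0.24 with adjusted p = 0.185 after the correction). After the correction 37.6% of genes were called in that comparison. At 72 h MYD88, the adaptor of the IL-1 receptor, was the 1 gene of 25 that rose (0.84 ± 0.22, adjusted p = 0.0210), where 6.22% of all genes rose. In CHL1 at 72 h of CDK4/6i none of the 25 was called by edgeR or DESeq2, with 4 at an unadjusted p below 0.05 in each, and at 6 d 2 rose, TAB3 (0.61) the most, and 1 fell, TNFAIP3 (-0.71 ± 0.21, adjusted p = 0.0401). Of all genes 4.98% were called in CHL1 at 72 h of CDK4/6i and 16.6% at 6 d. At 72 h 4161 of all 20705 genes had an unadjusted p below 0.05 by edgeR. Under PRMT5i 10 of 25 rose and 14 fell in CHL1, against 26.4% and 27.6% of all genes. After the correction 7 rose and 2 fell, where 28.7% of genes were called. IRAK1, a kinase of the IL-1 receptor complex, fell in both fits (-2.58 ± 0.25 and -1.28 ± 0.12). CHUK, an IkB kinase, rose in both (1.32 and 0.37). In A375 PRMT5i_72hr none of the 25 was called by either tool, where edgeR called 2.61% of all genes. An unadjusted p below 0.05 was reached by 0 of the 25 by edgeR and 1 by DESeq2, against 3332 of all 20705 genes by edgeR.

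Of 9 C/EBP and AP-1 factors, ATF3, a stress-induced member, rose in CHL1 CDK4/6i_72hr (1.43 ± 0.25, adjusted p = 0.0088) and JUN rose most at 6 d (1.21 ± 0.37, adjusted p = 0.0420). In A375 CEBPG fell at 72 h (-1.10), and at 6 d 1 rose, ATF3 (1.32, and 0.99 with adjusted p = 0.10 after the GC correction), and 4 fell, CEBPD the most (-2.26 ± 0.35, and -2.79 after the correction), with none and 5 after the correction. Of all genes 21.8% rose and 21.3% fell in A375 at 6 d, and 37.6% were called after the correction. Under PRMT5i in CHL1 1 rose and 5 fell, and 1 and none after the correction. There 26.4% of all genes rose and 27.6% fell, and 28.7% were called after the correction. In the JAK-STAT3 list of 10, SOCS2, a feedback inhibitor of cytokine receptors, rose in CHL1 by 2.09 ± 0.30 at 72 h and 2.74 ± 0.30 at 6 d of CDK4/6i (adjusted p = 0.0038 and 0.0004) and fell in A375 at 6 d (-1.43, adjusted p = 0.0006, and -1.08 after the correction). PIM1, a kinase that STAT factors induce, fell in CHL1 at both times (-0.92 and -0.97) and in A375 at 72 h (-1.61 ± 0.26, adjusted p = 0.0009).

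Messages of this kind are short-lived because proteins bind the AU-rich elements of their tails, and 8 genes of that machinery were measured. ZFP36, or tristetraprolin, which speeds their decay, rose in CHL1 by 1.47 ± 0.24 at 72 h and 1.65 ± 0.24 at 6 d of CDK4/6i (adjusted p = 0.0070 and 0.0016). HNRNPD, or AUF1, another AU-rich binding protein, fell in CHL1 at 6 d (-0.88) and in A375 at 72 h (-0.85) and 6 d (-1.40 ± 0.19, and -1.11 after the GC correction). In A375 at 6 d 2 of 8 rose and 3 fell, where 43.1% of all genes were called, and none rose and 4 fell after the correction, with ZC3H12A, a nuclease that degrades IL6 mRNA, up by 0.85 (0.22 with adjusted p = 0.261 after the correction). After the correction 37.6% of genes were called in A375 at 6 d. In CHL1 PRMT5i_72hr 2 rose and 5 fell, and 1 and 1 after the correction. There 54.0% of all genes were called, and 28.7% after the correction.

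Among 25 other secretory genes, under palbociclib 2 were called in CHL1 at 72 h, 7 at 6 d, 3 in A375 at 72 h and 12 at 6 d, in comparisons where 4.98%, 16.6%, 13.3% and 43.1% of all genes were called. TNFRSF11B, the decoy receptor osteoprotegerin, rose in CHL1 at both times (1.46 ± 0.22 and 1.57 ± 0.22, adjusted p = 0.0051 and 0.0014) and the growth factor FGF2 fell (-1.62 ± 0.23 and -1.87 ± 0.24). IGFBP3, which binds insulin-like growth factors, rose in A375 at 72 h (1.14 ± 0.21, adjusted p = 0.0019). In A375 at 6 d 7 rose and 5 fell (7 and 7 after the GC correction), and IL7, a lymphocyte growth factor, fell most (-1.39, and -0.61 after the correction). Under PRMT5i in A375 2 of the 25 rose, GDF15, a stress cytokine of the TGF-beta family, by 2.64 ± 0.23 (adjusted p = 0.0001). Of all genes 0.874% rose there. In CHL1 PRMT5i_72hr 6 rose and 8 fell, and 2 and 1 after the correction, with EREG up (1.91 and 0.71) and IGFBP5 down (-2.09 and -1.60) in both fits. There 54.0% of all genes were called, and 28.7% after the correction.

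Of 7 genes of the cGAS-STING pathway and of arrest, 1 to 5 were called in each comparison, where 2.61% to 54.0% of all genes were called. These ranges do not pair a count with the share of its own comparison, so they do not set the list apart from all genes. MKI67, the proliferation marker Ki-67, fell in CHL1 CDK4/6i_72hr (-1.18 ± 0.17) and CDK4/6i_6d (-1.17 ± 0.17, adjusted p = 0.0041 and 0.0016). In A375 it stood at 155 ± 18.9 CPM in CDK4/6i_72hr against 488 ± 43.1 CPM in control_72hr. At 6 d it was at 155 ± 4.18 CPM in A375 CDK4/6i_6d against 379 ± 74.9 CPM in control_6d. LMNB1, the lamin lost from senescent nuclei, fell in A375 at 72 h and 6 d of CDK4/6i (-2.26 ± 0.18 and -2.19 ± 0.18), and CDKN1A, the inhibitor p21, rose (1.52 ± 0.28 and 1.32 ± 0.28, adjusted p = 0.0022 and 0.0015). After the GC correction the 6 d values were -2.38 for LMNB1 and 0.77 for CDKN1A (adjusted p = 0.0065). In CHL1 LMNB1 was at 379 ± 3.81 CPM in the control, 265 ± 5.01 CPM in CDK4/6i_72hr and 175 ± 62.7 CPM in CDK4/6i_6d. Under PRMT5i CDKN1A rose in A375 (1.94 ± 0.28, adjusted p = 0.0030) and MKI67 fell (-0.81 ± 0.20), without a call among the 10 secreted factors in the fit without a block. TMEM173, which encodes STING, fell in CHL1 PRMT5i_72hr (-2.18 ± 0.36, and -1.17 after the GC correction).

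**Figure D4:**
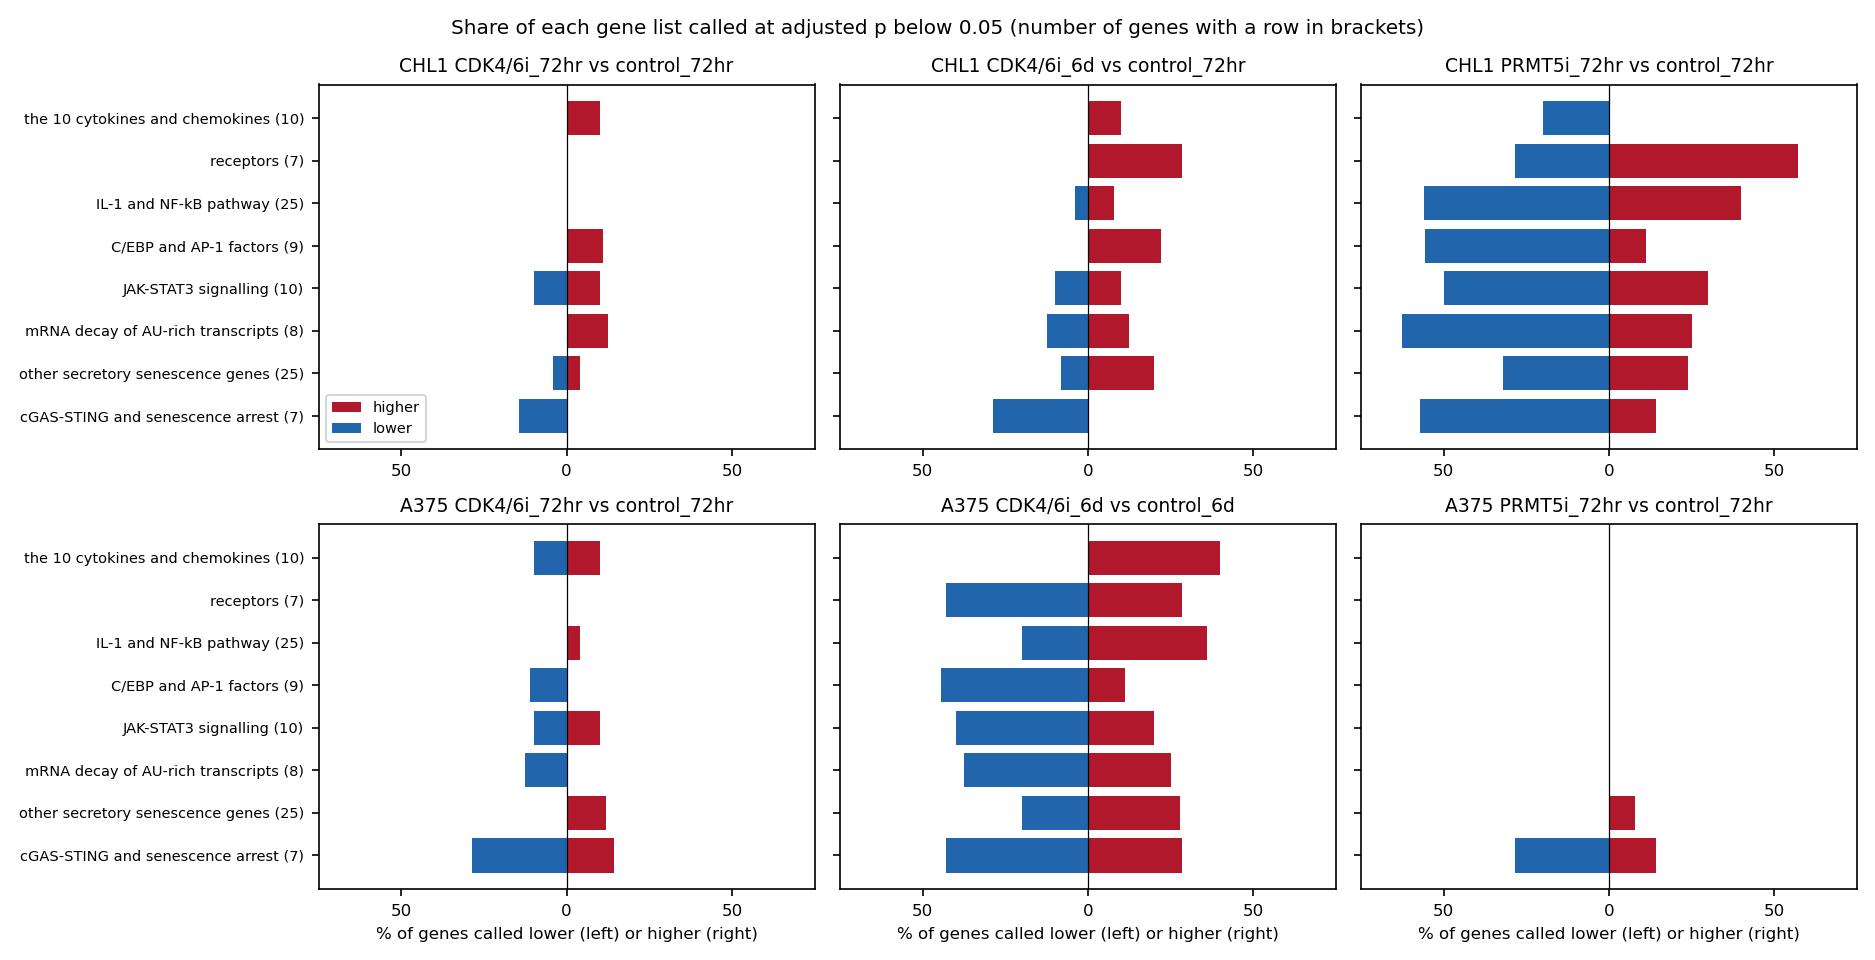
Share of each gene list, in percent of its genes with a row, called higher (right) and lower (left) in each of the 6 comparisons with control. The 10 cytokines and chemokines reach 4 of 10 higher in A375 CDK4/6i_6d, where 21.8% of all genes were called higher, and 2 of 10 lower in CHL1 PRMT5i_72hr, where 27.6% were.

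The markers of other cell types differed between the groups, and their sum was above the control in every treated group. The summed level of the 6 leukocyte and endothelial markers was 7.45 to 7.98 CPM in A375 control_6d and 23.6 to 29.4 CPM in CDK4/6i_6d, 7.00 to 7.48 and 14.9 to 15.4 CPM in control_72hr and CDK4/6i_72hr, and 8.44 to 8.95 CPM in the CHL1 control against 18.6 to 19.6 CPM in CDK4/6i_6d. In A375 LYZ (2.33 ± 0.30 at 6 d, and 2.68 after the GC correction) and CSF1R (1.37 ± 0.30, and 0.76 with adjusted p = 0.0370) rose, and in CHL1 PTPRC (1.15 ± 0.20) and VWF at 6 d. The sum was 10.6 to 13.3 CPM in CHL1 CDK4/6i_72hr, 15.2 to 17.3 CPM in CHL1 PRMT5i_72hr and 10.4 to 11.0 CPM in A375 PRMT5i_72hr. In CHL1 PRMT5i_72hr PTPRC rose by 1.00 ± 0.20, and the difference was -0.02 after the GC correction. CD14, ITGAM and, in A375, PTPRC were at or near 0 in these groups. Melanoma markers were called too. S100B rose in A375 CDK4/6i_72hr (1.65 ± 0.26), A375 CDK4/6i_6d (1.37 ± 0.23, and 0.80 after the GC correction) and CHL1 CDK4/6i_6d (1.54 ± 0.34). It fell in CHL1 PRMT5i_72hr (-1.24 ± 0.35, and -0.61 with adjusted p = 0.226 after the correction). MITF, AXL, DCT and PMEL were each called in some comparison with control. The part of all these markers in the cytokine values was not tested.

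The genes whose pattern over the 9 groups lay nearest to each cytokine were looked for among 15658 genes that averaged 1 CPM or more, by the root mean square difference of group means of log2(CPM + 1), each line centred on its own mean. They were EPHA1 (0.16) and RP11-694I15.7 (0.17) for IL6, GPR83 (0.10) and BTN2A3P (0.11) for IL8, ATP8B4 and FAM189A2 (both 0.15) for IL1A, and SH3RF2 (0.14) and TSPAN1 (0.16) for IL1B. For CXCL1 they were FOXL1 (0.09) and TLE1 (0.10), for LIF ADCY7 and PDCD11 (both 0.17), and for IL11 SFTA1P (0.15) and NUAK2 (0.19). No gene of the set was among the nearest to another. CXCL2, CXCL3 and CCL2, with means of 0.893, 0.725 and 0.483 CPM over the 18 libraries, were below the 1 CPM limit for this search.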

How the data were processed

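RNA was sequenced from 18 libraries of 2 cell lines, 2 libraries per group in 9 groups. The deposited table holds whole-number read counts per gene, which the authors made, per the labels and the submitters' processing notes, from RNeasy-extracted RNA and TruSeq RNA libraries with FastQC 0.11.6, HISAT2 2.0.4, Picard 2.17.3, SAMtools 1.18, HTSeq 0.11.2 and the GRCh37 build. The table's name calls it normalised, but its values are whole numbers with totals of 16213475 to 37424081 and were used as counts. Strand is not stated, so reads of a gene and of an antisense partner cannot be told apart. The 10 genes and the gene lists were chosen with earlier results of these data known. The A375 libraries at 6 d carry no replicate number in their labels and were numbered in accession order, as names only. No 2 libraries of a group agreed within counting noise.

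Each line was fitted with all of its groups by edgeR 4.0.16 in R 4.3.3 (TMM scaling, quasi-likelihood F-test, no filter on low counts), and the comparisons between lines in a fit of all 18 libraries, 14 comparisons in total. P-values were adjusted by Benjamini-Hochberg over all 20705 genes, and the standard error is the size of the log2 fold change divided by the square root of F. A count of 0 was taken to allow 3 reads per library, and intervals and floors cover counting error only. Alternatives were DESeq2 1.42.0, median-of-ratios size factors, a filter of 1 CPM in 2 libraries, a fit of the compared groups alone, the replicate number as a block, each library left out in turn, and the 72 h control for A375 at 6 d. A GC correction (a loess curve, span 0.4, of each library's deviation on transcript GC content, entered as an offset) and a fit of the numbered A375 libraries without a block were chosen after seeing the data. GC values were matched to 15208 genes by symbol and to a further 1148 by a former symbol. The procedure was tested on simulated data with 200 changed genes. Beside the 10 genes and their receptors, the text names from each list the called gene of largest rise and of largest fall in each comparison with control, if it averaged 1 CPM over the line, and the genes nearest in pattern. A gene that this rule also selects is not reported here. The markers named as called, and the motif letters searched in the promoters, were chosen after their values or sequences were seen.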

Additional observations from a re-analysis of the deposited data

Results flagged for a closer look

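The response of 8 gene and drug pairs differed between the lines by the interaction of cell line and treatment (edgeR, adjusted p below 0.05 over all genes). A positive value means a more positive response in CHL1. For CDK4/6i_6d the difference in log2 fold change was 2.90 for IL8, -1.40 for IL1A, -2.07 for IL1B and -2.21 for LIF. The CHL1 control of that comparison is of 72 h and the A375 control of 6 d, so time in culture is part of the CHL1 response only, and time and line cannot be told apart. For PRMT5i_72hr the difference was -1.92 for IL6, -1.44 for IL1B, -1.58 for LIF and -1.72 for IL11. After the GC correction 4 of the 8 no longer passed, IL8 for CDK4/6i_6d (1.31, adjusted p = 0.180) and, for PRMT5i_72hr, IL1B (-1.57, adjusted p = 0.0600), LIF (-0.56, adjusted p = 0.324) and IL11 (-0.72, adjusted p = 0.392).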

How the results depend on the processing

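Counts of the 10 genes called moved as follows. In A375 CDK4/6i_72hr 2 became 5 with the compared groups alone and 5 with the replicate block (IL1A, IL1B and LIF higher, CXCL1 and IL11 lower). In A375 PRMT5i_72hr 0 became 5 with the block and 2 with the numbered libraries unblocked. In A375 PRMT5i_72hr against CDK4/6i_72hr 1 became 5 with the compared groups alone, 6 with the block (IL6, CXCL1, CXCL2 and IL11 higher, IL1A and IL1B lower), 5 with the numbered libraries unblocked and 2 with the GC correction. In CHL1 CDK4/6i_72hr 1 became 0 with the CPM filter, which removes IL8, and 2 with the compared groups alone or the GC correction, and DESeq2 called IL6 but gave IL8 no adjusted p. In CHL1 CDK4/6i_6d 1 became 0 with the filter, and in CHL1 PRMT5i_72hr 2 became 1 with the filter, DESeq2 or the compared groups alone. For the line difference in CDK4/6i_72hr 0 became 2 with DESeq2 or the compared groups alone, and 1 with the block, the numbered libraries or the GC correction, and for PRMT5i_72hr 4 became 2 with the GC correction. With the 72 h control, IL11 (-1.71) and IL1B (-0.44) reversed in A375 CDK4/6i_6d. Except for the filter, the cause was not tested.

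With 1 library left out, where the lone library of a group is assumed to vary like the other groups, counts ranged from 0 to 0 in CHL1 CDK4/6i_72hr, 0 to 1 in CHL1 CDK4/6i_6d, 0 to 2 in CHL1 PRMT5i_72hr, 0 to 1 in A375 CDK4/6i_72hr, 1 to 4 in A375 CDK4/6i_6d and 0 to 0 in A375 PRMT5i_72hr. They ranged from 2 to 4 for PRMT5i_72hr against CDK4/6i_72hr in CHL1, 0 to 1 in A375, 0 to 0 for CHL1 CDK4/6i_6d against CDK4/6i_72hr, 0 to 2 for the A375 time difference and 9 to 9 between controls. For the line differences they were 0 to 0 (CDK4/6i_72hr), 1 to 4 (CDK4/6i_6d) and 0 to 4 (PRMT5i_72hr).

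Over all genes, calls in A375 PRMT5i_72hr went from 541 to 1861 with the compared groups alone, 911 with DESeq2, 1468 with the GC correction, 3265 with the numbered libraries unblocked and 6113 with the replicate block. With the compared groups alone they went from 2761 to 6940 in A375 CDK4/6i_72hr (8752 with the block), from 8928 to 5862 in A375 CDK4/6i_6d, from 1032 to 4202 in CHL1 CDK4/6i_72hr (1671 with DESeq2), and from 1129 to 4517 between the drugs in A375 (7167 with the block). In CHL1 PRMT5i_72hr they went from 11176 to 4692 with the GC correction, in the A375 time difference from 224 to 1146 with DESeq2, and in CHL1 CDK4/6i_6d against CDK4/6i_72hr from 3 to 63 with DESeq2. With 1 library left out, the lowest counts were 20 in A375 PRMT5i_72hr, 827 in A375 CDK4/6i_72hr, 103 in CHL1 CDK4/6i_72hr and 631 in CHL1 CDK4/6i_6d, and the A375 time difference ranged from 56 to 7019, the highest without control_6d library 2. For the line difference in CDK4/6i_72hr the share of calls higher in CHL1 went from 37.6% to 52.6% with the GC correction.

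The labels do not say what a replicate number shares. Deviations of same-numbered libraries correlated at 0.10 to 0.35 among the A375 groups at 72 h and at -0.23 to 0.27 in CHL1, so the pairing was not taken as given, and the block also called IL1A in CHL1 PRMT5i_72hr and lost IL8 there. Of the single-gene values, 312 kept their direction and side of the threshold, 67 lost a call, 59 gained one and 2 reversed. CXCL2, CXCL3, CCL2 and IL6 in A375 and IL1B, IL8, IL11 and the CXCL genes in CHL1 had at most 50 reads in any library, which limits their precision.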
